A study of Mus musculus with 20 samples.

Results

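Oxymetholone is a synthetic anabolic androgen, and 9 genes of steroid hormone signalling were followed across its use in mouse liver. They are Nr3c1, the glucocorticoid receptor; Srd5a1 and Hsd11b1, enzymes that convert steroids; and 6 classic direct targets of steroid receptors, Fkbp5, Tsc22d3, Cebpd, Zbtb16, Klf9 and Sgk1. They were chosen by name for their role with earlier results of these data known, and all 9 were found among the 16115 genes of the deposited table.

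Without hormone, the glucocorticoid receptor waits mainly in the cytoplasm in a complex with heat shock chaperones. A hormone that binds there sends the receptor to the nucleus, where the glucocorticoid receptor and its closest relatives recognise nearly the same inverted repeat in DNA and so share part of their targets. Liver is a main site of glucocorticoid action, in which the receptor drives glucose production and dampens inflammation, and several of its targets also follow the day and the acute phase response.

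Liver RNA of male mice was sequenced in 5 groups, collected when treatment had lasted 18 months. In the Fancd2 mutants (genotype d2-/- in the labels) the groups were metformin plus oxymetholone, here the combination (3 libraries), oxymetholone alone (5), metformin alone (3) and no treatment (3). Untreated wild type gave 4 libraries. Fancd2 acts in the repair of DNA crosslinks, and metformin is a glucose-lowering drug. All treated mice were mutants, so no group shows a drug in wild type. The labels give neither dose, nor hour of collection, nor whether each library is a separate animal, so the p-values measure only the spread between these libraries.

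Total counts were 20.2 to 32.7 M per library, and every member had at least 23 counts in each of the 18 libraries. Over all 18 libraries, albumin and Apoa1 had the highest mean levels of the 12 measured hepatocyte markers. The summed level of these markers was 47983 to 108000 CPM (counts scaled to library size) with the combination and 63187 to 87656 with oxymetholone. It was 44060 to 95934 with metformin, 59106 to 94686 in untreated mutants and 55046 to 91929 in wild type. Combination library 3 and metformin library 3 had the lowest median rank correlation with the other libraries (0.922 and 0.929). In oxymetholone library 3, mitochondrial genes held 8.19% of counts, against 1.54 to 3.89% in the other 17 libraries. Fancd2 itself was not analysed here. In bulk liver, fewer cells of a type and less RNA per cell cannot be told apart.

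Promoter windows were looked up for sites that bear on these genes. RefSeq windows on GRCm38.p6, from 250 bases before to 50 after each transcript start, were matched by symbol for 6 of the 9 genes (13 windows), and Nr3c1, Cebpd and Zbtb16 had none. The files use another build, GRCm39. An Sgk1 window, 1 of 6 for this gene, chr10:21993640-21993939 on the plus strand, is shown. It alone among the 13 held the full receptor element AGAACANNNTGTTC, an inverted repeat of a short unit, written here without its last base. Which Sgk1 start is used in liver was not examined. The Fkbp5 window, chr17:28486100-28486399 on the minus strand, is shown for the gene with the widest span of values below. Capitals mark the receptor element, with its last base from the overlapping match on the other strand. They also mark the E-box CACGTG, the element read by clock and MYC family factors.
Sgk1: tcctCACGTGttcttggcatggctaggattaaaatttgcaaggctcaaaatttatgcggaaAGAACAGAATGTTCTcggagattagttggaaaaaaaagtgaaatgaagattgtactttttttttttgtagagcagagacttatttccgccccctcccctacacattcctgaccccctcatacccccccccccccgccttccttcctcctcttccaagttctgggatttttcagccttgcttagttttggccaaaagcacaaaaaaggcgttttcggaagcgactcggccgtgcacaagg
Fkbp5: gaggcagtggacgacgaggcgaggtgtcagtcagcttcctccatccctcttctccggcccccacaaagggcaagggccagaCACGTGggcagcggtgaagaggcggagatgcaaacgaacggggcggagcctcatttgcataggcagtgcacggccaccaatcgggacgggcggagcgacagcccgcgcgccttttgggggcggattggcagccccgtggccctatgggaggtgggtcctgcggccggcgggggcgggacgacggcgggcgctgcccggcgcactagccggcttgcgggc

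In the Sgk1 window the receptor element began 189 bases before the transcript start and the E-box 246 bases before it. The Fkbp5 window held an E-box 169 bases before the start and neither the full element nor a single repeat unit. Searched on both strands, the full element was in 16 of all 32851 windows (0.0487%), the repeat unit AGAACA, which is part of the element, in 19.0% and the E-box in 7.15%. Among the members the repeat unit was in windows of Sgk1 and Tsc22d3, and the E-box in windows of Fkbp5 and Sgk1. A match is a string of letters in a short window, and receptor sites further away were not searched.

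None of the 9 genes passed edgeR's quasi-likelihood test at an adjusted p of 0.05 in any of the 8 comparisons. The targets Fkbp5 and Cebpd had the highest mean levels in the oxymetholone groups, and the Nr3c1 means of the 5 groups lay within 53.0 to 63.7 CPM. The shares of all genes that passed were 0.0434% (7 genes) for oxymetholone against untreated mutants, 0.0186% (3) for the combination against untreated mutants, 0.0993% (16) for oxymetholone against wild type and 0.124% (20) for the mean effect of oxymetholone without and with metformin. No gene of the table passed (0%) for untreated mutants against wild type, metformin against untreated mutants, the combination against metformin, or the difference between the oxymetholone effects with and without metformin. In these 4 comparisons 416, 914, 552 and 483 genes had an unadjusted p under 0.05 in edgeR, and DESeq2 called 0, 11, 10 and 3. The authors' deposited table called none of the 9 genes in the 6 comparisons read from it.

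**Figure D1:**
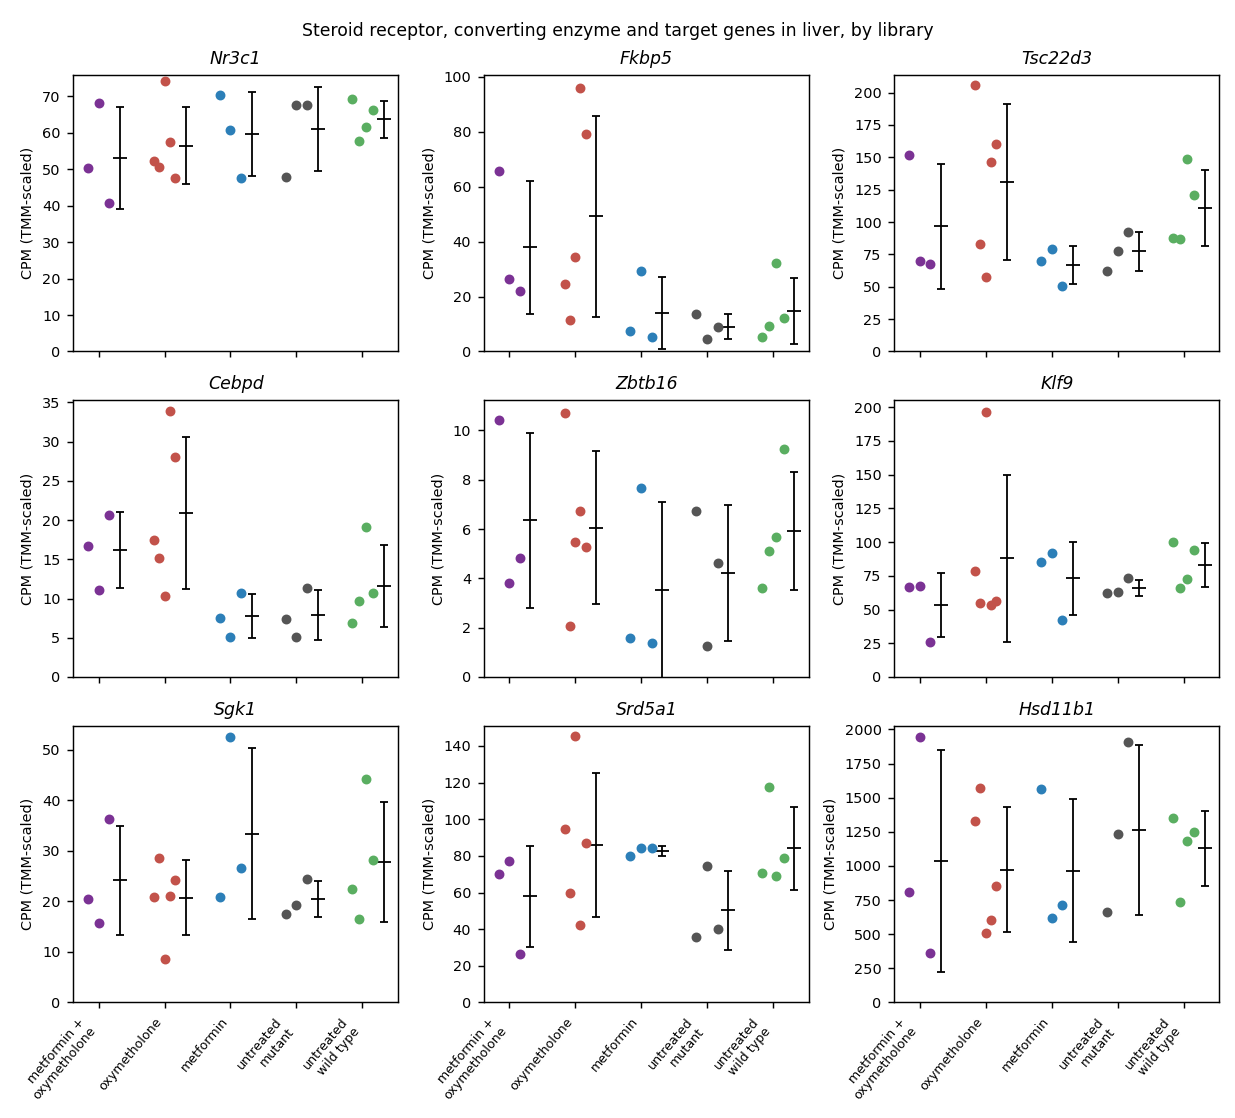
Level of each of the 9 genes in CPM (y axis) in every library, by group (x axis); points are libraries, and the bar with whiskers beside them is the mean ± SD of the group (whiskers below 0 are not drawn). Fkbp5 and Cebpd reached their highest values in oxymetholone libraries, while the Nr3c1 points of the 5 groups lie between 40.7 and 74.1 CPM.

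The receptor comes first. Nr3c1 had 50.2, 68.1 and 40.7 CPM with the combination, and 52.2, 50.6, 74.1, 57.3 and 47.6 CPM with oxymetholone. It had 70.4, 60.7 and 47.4 CPM with metformin, 47.8, 67.6 and 67.5 CPM in untreated mutants, and 69.2, 57.7, 61.5 and 66.2 CPM in wild type. All groups overlapped, and oxymetholone library 3 was the highest of the 18 and combination library 3 the lowest. The group means were 53.0 CPM with the combination, 56.3 with oxymetholone, 59.5 with metformin, 60.96 in untreated mutants and 63.7 in wild type, and each neighbouring pair in that order overlapped. The mean effect of oxymetholone on Nr3c1 was smaller than its standard error, with a 95% confidence interval of -0.47 to 0.19 on the log2 scale. Libraries of a group lay closer together for Nr3c1 than for most genes, with a within-group SD of 0.26 on the log2 CPM scale, and 11.3% of genes had a smaller one.

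For Nr3c2, the mineralocorticoid receptor, the interval of the mean effect of oxymetholone ran from -0.58 to 0.35 on the log2 scale. Pgrmc2, a membrane-bound progesterone-binding protein, had 31.5 to 46.9 CPM with the combination and 31.5 to 50.1 with oxymetholone, against 45.5 to 58.5 with metformin and 43.1 to 63.2 in untreated mutants. Its mean effect of oxymetholone was -0.31 ± 0.15 (SE) on the log2 scale, with an adjusted p of 0.9997 in edgeR's quasi-likelihood test. Of the 5 receptor genes of the list measured here (Nr3c1, Nr3c2, Esr1, Pgrmc1 and Pgrmc2), 1 was higher and 4 lower with oxymetholone than in untreated mutants, with a median log2 difference of -0.13 against 0.03 over all genes, and none passed the test.

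Of the converting enzymes, Srd5a1 encodes a reductase that turns testosterone into dihydrotestosterone and also starts the breakdown of corticosteroids in liver. Srd5a1 had 70.3, 77.3 and 26.4 CPM with the combination, and 94.9, 59.9, 145, 42.4 and 86.9 CPM with oxymetholone. It had 79.7, 84.5 and 84.3 CPM with metformin, 35.6, 74.7 and 40.4 CPM in untreated mutants, and 70.8, 117, 68.8 and 79.1 CPM in wild type. Every metformin library lay above every untreated mutant library and above every combination library, whereas the oxymetholone libraries spanned the values of all other groups except the 2 lowest of the untreated mutants and the lowest of the combination. The metformin libraries lay close together, at 82.8 ± 2.70 CPM (SD, n = 3), against 50.2 ± 21.3 CPM in untreated mutants (SD, n = 3).

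For metformin against untreated mutants the Srd5a1 difference was 0.72 ± 0.43 (SE) on the log2 scale, with an adjusted p of 0.927 in edgeR's quasi-likelihood test, and it was 1.12 without untreated mutant library 3. Of all genes, 3.94% were higher without overlap in that comparison, Srd5a1 being the 1 member among them. For the combination against metformin Srd5a1 differed by -0.52 ± 0.43 with an adjusted p of 0.999 in the same edgeR test, and 2.15% of all genes were lower without overlap there. That difference was -0.17 without combination library 3 and -0.78 without combination library 2. For oxymetholone against untreated mutants the difference was 0.77 ± 0.40, with an adjusted p of 0.877 in edgeR's test. The oxymetholone effect with metformin minus that without it was -1.29 ± 0.58 in Srd5a1 (95% confidence interval -2.52 to -0.06). Its unadjusted p was 0.0413 and its adjusted p 0.863 in edgeR's test, while 3% of all genes had an unadjusted p under 0.05. Under limma-voom with quality weights it was -0.63. Without untreated mutant library 3, the difference for oxymetholone against untreated mutants was 1.18, without oxymetholone library 3 it was 0.50, and under limma-voom it was 0.34, so it moved by over 1.5 times either way without passing the test. For untreated mutants against wild type Srd5a1 differed by -0.74 ± 0.41, with an adjusted p of 0.973 in edgeR's test, by -1.15 without untreated mutant library 3 and by -0.49 under limma-voom.

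Hsd11b1, which regenerates active corticosterone from its inert form inside the cell, had 806, 1943 and 361 CPM with the combination and 1327, 1572, 511, 606 and 850.3 CPM with oxymetholone. It had 1566, 616 and 716 CPM with metformin, 661, 1231 and 1905 CPM in untreated mutants and 1354, 733, 1183 and 1248 CPM in wild type. The groups overlapped in each comparison, and combination libraries 2 and 3 held the highest and the lowest value of all 18. The interval for oxymetholone against untreated mutants ran from -1.46 to 0.70 on the log2 scale. Of the 16 measured genes of steroid conversion and binding, 7 were higher and 9 lower with oxymetholone than in untreated mutants (median -0.13), and none passed the test in any comparison. Akr1d1, the hepatic reductase of the steroid A ring, had the smallest p of the genes beside the members in the mean effect of oxymetholone, at -0.51 on the log2 scale with an unadjusted p of 0.147 and an adjusted p of 0.9997 in edgeR's test.

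**Figure D2:**
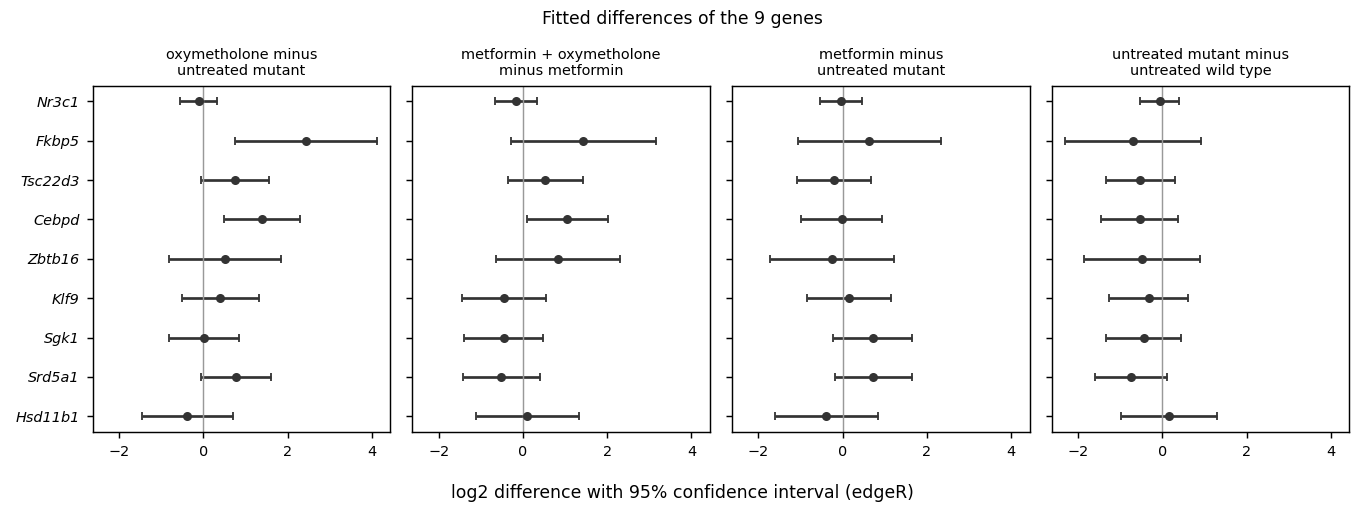
Log2 difference of each gene (x axis) with its 95% confidence interval from edgeR, in 4 comparisons, 1 per panel; the vertical line marks no difference. In the oxymetholone panel the intervals of Fkbp5 (0.76 to 4.12) and Cebpd (0.49 to 2.30) lie above 0, and in the combination against metformin panel that of Cebpd (0.09 to 2.02) does.

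Among the targets, Fkbp5 encodes a co-chaperone that lowers the affinity of the glucocorticoid receptor for its hormone, and it is a standard reporter of both glucocorticoid and androgen action. Fkbp5 had 65.8, 26.3 and 21.9 CPM with the combination and 24.7, 11.5, 34.5, 96.0 and 79.1 CPM with oxymetholone. It had 7.63, 29.1 and 5.36 CPM with metformin, 13.6, 4.65 and 8.84 CPM in untreated mutants and 5.20, 9.19, 32.1 and 12.3 CPM in wild type. The 3 combination libraries lay above all untreated mutant libraries, which 4.71% of genes did. With oxymetholone alone 4 of the 5 libraries did so, and library 2 lay within the untreated mutant range. Wild-type library 3 and metformin library 3 lay above the 2 lowest oxymetholone libraries.

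The Fkbp5 means were 49.2 ± 36.5 CPM with oxymetholone (SD, n = 5) and 9.03 ± 4.48 CPM in untreated mutants (SD, n = 3). The log2 difference was 2.44 ± 0.80 (SE), with an unadjusted p of 0.00708 and an adjusted p of 0.727 in edgeR's quasi-likelihood test. For the combination against untreated mutants it was 2.07 ± 0.83, with an adjusted p of 0.866 in edgeR's test. For the combination against metformin, a comparison that shares no library with oxymetholone against untreated mutants, it was 1.43 ± 0.81 with an adjusted p of 0.999 in edgeR's test. That value was 2.82 without metformin library 3 and combination library 3, left out together, and 0.78 without combination library 1. Against wild type the oxymetholone libraries differed by 1.74 ± 0.69, with an adjusted p of 0.891 in edgeR's test, and by 2.47 without wild-type library 3. Fkbp5 also varied more within groups than most genes (SD 1.10 on the log2 CPM scale), and 92.7% of genes had a smaller SD.

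Cebpd, a transcription factor induced by glucocorticoids and in the acute phase response, had 16.7, 11.1 and 20.7 CPM with the combination and 17.5, 15.1, 10.3, 33.8 and 28.0 CPM with oxymetholone. It had 7.58, 5.15 and 10.7 CPM with metformin, 7.39, 5.09 and 11.4 CPM in untreated mutants and 6.91, 9.65, 19.1 and 10.7 CPM in wild type. The combination libraries lay above all metformin libraries, which 2.24% of genes did. With oxymetholone 4 of 5 libraries lay above all untreated mutant libraries, library 3 being the exception. Cebpd means were 20.9 ± 9.67 CPM with oxymetholone (SD, n = 5) and 7.95 ± 3.18 CPM in untreated mutants (SD, n = 3).

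The Cebpd difference for oxymetholone against untreated mutants was 1.40 ± 0.43 (SE) on the log2 scale, with an unadjusted p of 0.00458 and an adjusted p of 0.659 in edgeR's quasi-likelihood test. The combination differed from untreated mutants by 1.02 ± 0.46 (adjusted p 0.881 in edgeR's test) and from metformin by 1.05 ± 0.46 (adjusted p 0.999). That last value was 0.58 without metformin library 3 and combination library 3. In the authors' deposited table, oxymetholone against untreated mutants gave Cebpd a log2 fold change of 1.37 with an adjusted p of 0.0779, and Fkbp5 one of 1.78 with an adjusted p of 0.340, beside 47 genes called there.

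Averaged over the absence and presence of metformin, the oxymetholone effect was 1.94 ± 0.57 (SE) on the log2 scale for Fkbp5 and 1.22 ± 0.31 for Cebpd. The adjusted p-values were 0.450 and 0.298 in edgeR's quasi-likelihood test. DESeq2 gave 1.95 and 1.21 with adjusted p-values of 0.0376 and 0.0374, so both genes passed with that tool alone. In that comparison DESeq2 called 79 of all 16115 genes, where edgeR called 20. Over all alternatives, the adjusted p of the mean effect ranged between 0.0376 and 0.928 for Fkbp5 and between 0.0374 and 0.736 for Cebpd, and both differences stayed above 0. At an unadjusted p under 0.05 in edgeR, 3 of the 9 members (Fkbp5, Cebpd and Tsc22d3) stood in the mean effect, where 5.04% of all genes did. For oxymetholone against untreated mutants there were 2 (Fkbp5 and Cebpd) beside 4.8% of all genes, for the combination against untreated mutants the same 2 beside 5.46%, for oxymetholone against wild type the same 2 beside 4.51%, and for the combination against metformin 1 (Cebpd) beside 3.43%. No member did for metformin against untreated mutants, where 5.67% of genes did, or for untreated mutants against wild type, where 2.58% did.

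A stricter view of the libraries asks whether all of 1 group lie on 1 side of the other. For oxymetholone against untreated mutants no member did, while 1.87% of all genes were higher and 1.59% lower in that way, and for oxymetholone against wild type none did, beside 0.987% higher and 1.11% lower. In the combination against untreated mutants the 1 member was Fkbp5, higher (4.71%), and none was lower (3.95%). Metformin against untreated mutants had Srd5a1 higher and no member lower (3.32%). Untreated mutants against wild type had none, beside 2.5% of genes higher and 3.82% lower.

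Tsc22d3, the glucocorticoid-induced leucine zipper that restrains inflammatory transcription, had 152, 69.8 and 67.9 CPM with the combination and 206, 83.2, 57.6, 147 and 161 CPM with oxymetholone. It had 70.2, 79.5 and 50.4 CPM with metformin, 61.9, 77.8 and 92.2 CPM in untreated mutants and 87.7, 86.9, 148 and 121 CPM in wild type. High values stood in oxymetholone libraries 1, 4 and 5, in combination library 1 and in wild-type library 3, and the groups overlapped in each pair compared. The difference for oxymetholone against untreated mutants was 0.76 ± 0.38 (SE), with an adjusted p of 0.877 in edgeR's quasi-likelihood test, and the mean effect of oxymetholone was 0.65 ± 0.28 with an adjusted p of 0.923. That mean effect was 0.40 without combination library 1, and the difference between the combination and metformin, 0.53 with all libraries, was 0.05 without it. For untreated mutants against wild type Tsc22d3 differed by -0.52 ± 0.39, with an adjusted p of 0.973 in the same edgeR test.

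Zbtb16, a zinc finger repressor that is among the steepest glucocorticoid targets in cultured cells, had 10.4, 3.82 and 4.82 CPM with the combination and 10.7, 2.08, 5.48, 6.73 and 5.28 CPM with oxymetholone. It had 1.58, 7.66 and 1.39 CPM with metformin, 6.75, 1.26 and 4.62 CPM in untreated mutants and 3.59, 5.09, 5.70 and 9.25 CPM in wild type. Each pair of groups overlapped, and the mean effect of oxymetholone was 0.67 ± 0.47 (SE) with an adjusted p of 0.9997 in edgeR's quasi-likelihood test. That mean effect was 0.40 without combination library 1, 1.30 without metformin library 3 and 1.52 under limma-voom with quality weights. For the combination against metformin it differed by 0.83 ± 0.70, and by 2.25 without metformin library 3 and combination library 3 or 0.28 without combination library 1. Its within-group SD was 0.94 on the log2 CPM scale, and 88.1% of genes had a smaller one.

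Klf9, a Krüppel-like factor that responds to glucocorticoid and thyroid hormone, had 66.4, 67.7 and 25.9 CPM with the combination and 78.7, 54.7, 197, 53.1 and 56.0 CPM with oxymetholone. It had 85.1, 92.0 and 42.1 CPM with metformin, 62.6, 62.9 and 73.2 CPM in untreated mutants and 100.1, 66.0, 72.3 and 94.1 CPM in wild type. Oxymetholone library 3 stood alone at the top, and of the other 4 oxymetholone libraries 3 lay below and 1 above the untreated mutant range. Its mean was 87.9 CPM with oxymetholone and 66.2 CPM in untreated mutants, a difference smaller than its standard error, and without oxymetholone library 3 the log2 difference was -0.12.

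Sgk1, the serum and glucocorticoid-regulated kinase, had 20.5, 15.8 and 36.4 CPM with the combination and 20.9, 28.5, 8.62, 21.0 and 24.3 CPM with oxymetholone. It had 20.9, 52.6 and 26.6 CPM with metformin, 17.5, 19.4 and 24.4 CPM in untreated mutants and 22.4, 16.6, 44.2 and 28.1 CPM in wild type. The groups overlapped, with the top values in metformin library 3 and wild-type library 3. Of the 6 windows of Sgk1, 1 holds the receptor element printed above. Sgk1 had means of 20.7 CPM with oxymetholone and 20.4 CPM in untreated mutants. The interval of that difference ran from -0.82 to 0.86 on the log2 scale. Metformin differed from untreated mutants by 0.71 ± 0.45 (SE), with an adjusted p of 0.927 in edgeR's quasi-likelihood test, and by 0.22 without metformin library 3. The combination differed from metformin by -0.46 ± 0.44, by 0.03, a change of sign, without metformin library 3, and by -0.88 without combination library 3.

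**Figure D3:**
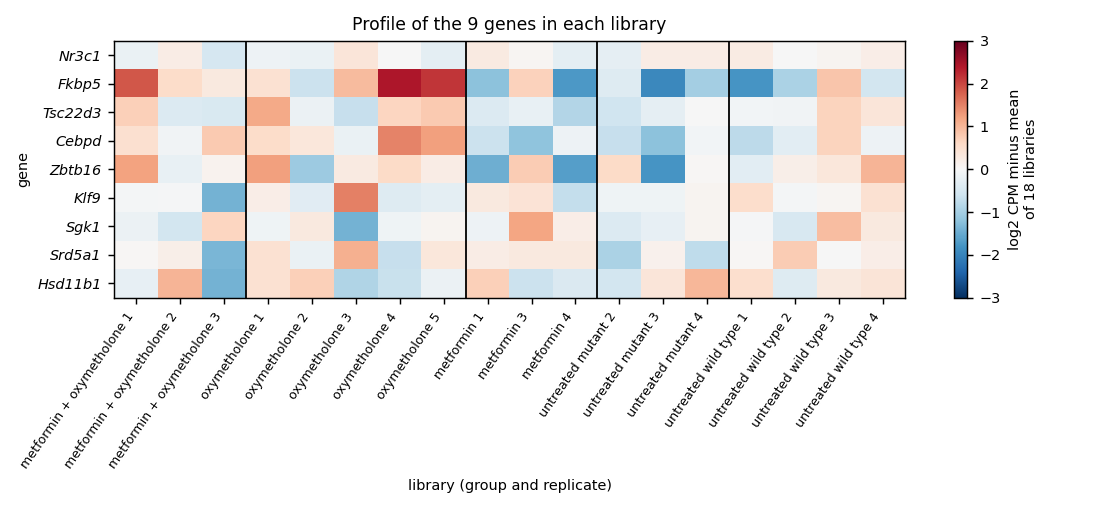
Log2 CPM of each gene (rows) in each library (columns, in blocks by group), as the difference from the gene's mean over the 18 libraries (colour). The Fkbp5 row spans the most, and oxymetholone library 3 is high in Klf9 and Srd5a1 and low in Sgk1, Tsc22d3 and Hsd11b1.

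The members did not move as one block. Over the 18 libraries, which share treatment groups and composition, Nr3c1 and Klf9 had a Pearson correlation of 0.77 in log2 CPM (Spearman 0.78), and 0.78 after subtraction of the group means. Fkbp5 went with Cebpd at 0.70 (Spearman 0.62; 0.43 within groups) and with Zbtb16 at 0.65 (Spearman 0.68; 0.70 within groups). Klf9 and Srd5a1 had 0.65, and 0.17 without the 2 libraries farthest from the median. Nr3c1 and Fkbp5, the receptor and a target, had -0.26. These are descriptions of 36 pairs without a test.

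Among 11370 candidate genes, those with the profile most like Nr3c1 over the 18 libraries were Ppp4r3a (Pearson 0.91), Arhgap26 (0.90) and Thrb (0.89), the last being the thyroid hormone receptor beta. Most like Fkbp5 were St3gal5 (0.88), Tmc7 (0.84) and Gde1 (0.83). Srd5a1 was most like Slc7a2 (0.83), an amino acid transporter, Tmem25 (0.81) and Foxo3 (0.80). Hsd11b1 was most like Il1rap (0.94), the interleukin-1 receptor accessory protein, Iyd (0.94) and Synj2bp (0.93).

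The wider set of glucocorticoid targets held 30 measured genes of 32 listed, the 6 target members included. With oxymetholone 24 of the 30 were higher and 6 lower than in untreated mutants, with a median log2 difference of 0.55, beside 52.9% of all genes higher and a median of 0.03. None passed edgeR's test. An unadjusted p under 0.05 in edgeR stood in 7, all higher, where 4.8% of all genes had one in either direction. For the combination against metformin it stood in 3 higher and 1 lower, beside 3.43% of all genes. Against wild type, 19 of 30 were higher with oxymetholone (median 0.18), beside 51.7% of all genes. That count was 14 without oxymetholone library 4, and over all settings it ran from 14 to 24, with medians of -0.03 to 0.39. With the combination 19 of 30 were higher than in untreated mutants (median 0.24, and 0.05 to 0.37 over all settings), beside 50.4% of all genes. Set against metformin, 16 of 30 were higher with the combination (median 0.15, and -0.01 to 0.56 over all settings), beside 48.1% of all genes. In untreated mutants 9 of 30 were higher and 21 lower than in wild type (median -0.41, and -0.51 to -0.19 over all settings), beside 47.8% of all genes higher. The list is not a measure of its own: it was written with earlier results of these data known.

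In the comparisons without a shared library, oxymetholone against untreated mutants and the combination against metformin, 14 of the 30 glucocorticoid targets were higher in both and 4 lower in both, a same-sign share of 60%, against 43.5% of all genes. That share was 52.9% for androgen targets and 50% for genes of steroid conversion and binding. It was 41.2% for receptor chaperones and coregulators and 40% for receptors. Of the 9 members 4 (Fkbp5, Tsc22d3, Cebpd and Zbtb16) were higher in both and 1 (Nr3c1) lower in both.

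**Figure D4:**
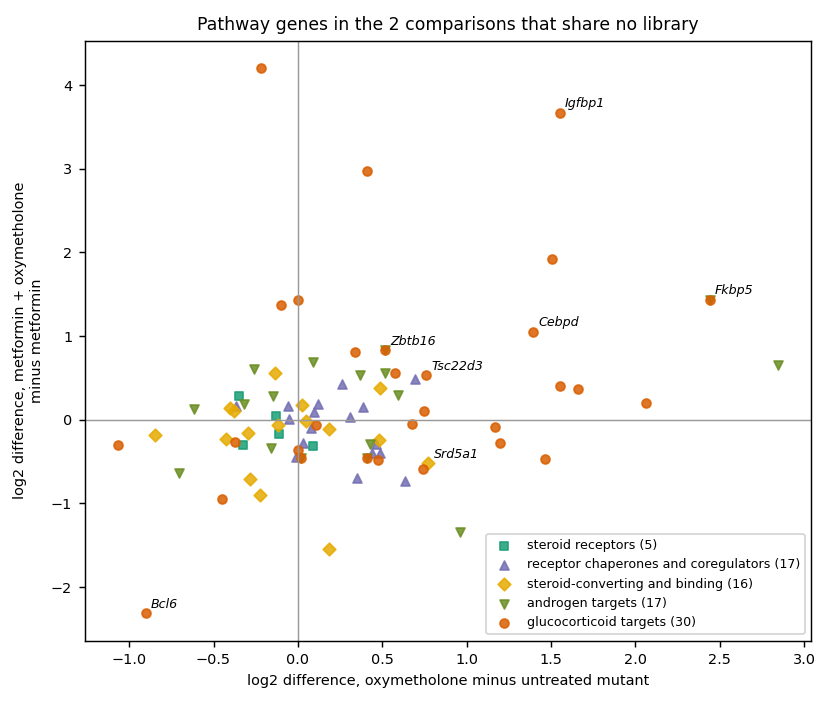
Log2 difference of each measured gene of the 5 pathway lists for oxymetholone against untreated mutants (x axis) and for the combination against metformin (y axis), comparisons that share no library; colour and shape give the list, and a gene in more than 1 list is drawn once for each. Fkbp5 and Cebpd lie up and to the right, while Srd5a1 is to the right and below 0.

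Beyond the members, Igfbp1, an insulin-like growth factor binding protein made by liver, had 59.9, 19.0 and 284 CPM with the combination against 9.53, 7.46 and 11.5 CPM with metformin. It had 130, 104, 15.6, 59.7 and 93.2 CPM with oxymetholone against 14.3, 58.1 and 10.2 CPM in untreated mutants. Its mean effect of oxymetholone was 2.61 ± 0.63 (SE) on the log2 scale, with an adjusted p of 0.225 in edgeR's quasi-likelihood test and 0.00141 in DESeq2. The combination libraries were above all metformin libraries, which 2.24% of genes were, while the oxymetholone libraries overlapped the untreated mutants. Igfbp1 was named by its p in the mean effect, so its lack of overlap is not separate evidence.

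Lpin1, a regulator of fat metabolism, had a mean effect of 1.13 ± 0.39 and Per1, a clock gene that glucocorticoids induce, one of 1.01 ± 0.39, both on the log2 scale, with adjusted p-values of 0.646 and 0.803 in edgeR's test. Both differences lay mainly in oxymetholone against untreated mutants, at 2.06 ± 0.55 for Lpin1 and 1.66 ± 0.55 for Per1. For the combination against metformin they were smaller than their standard errors (intervals -0.99 to 1.38 and -0.84 to 1.57). Metformin alone also differed from untreated mutants, by 1.08 ± 0.57 in Lpin1 and 1.38 ± 0.59 in Per1. The adjusted p-values were 0.9165 and 0.8147 in edgeR's test. Oxymetholone differed from wild type by 1.08 ± 0.47 in Lpin1, and for Per1 that interval ran from -0.63 to 1.36. The effect with metformin minus that without it was -1.87 ± 0.77 in Lpin1 (adjusted p 0.863 in edgeR's test). Untreated mutants differed from wild type by -1.30 ± 0.56 in Per1 (adjusted p 0.973 in edgeR's test). Bcl6, a repressor with a male pattern in liver, had a mean effect of -1.61 ± 0.50 with an adjusted p of 0.536 in edgeR's test. Of 17 measured androgen targets, 4 (Fkbp5, Zbtb16, Klf9 and Sgk1) also stand in the glucocorticoid list. With oxymetholone 11 of the 17 were higher than in untreated mutants (median 0.37, and 0.11 to 0.37 over all settings), beside 52.9% of all genes. Against wild type 10 were higher with oxymetholone (median 0.03), beside 51.7% of all genes. In the mean effect of oxymetholone 10 were higher (median 0.07), beside 47.7% of all genes. Set against metformin, 11 were higher with the combination (median 0.29, and -0.05 to 0.29 over all settings), beside 48.1% of all genes. That last count ran from 8 to 13 over all settings, and none of the 17 passed the test. Odc1, the first enzyme of polyamine synthesis, had 112, 110 and 126 CPM with the combination against 90.9, 92.4 and 53.3 CPM with metformin. Its levels with oxymetholone, at 61.8 to 124 CPM, overlapped those in untreated mutants, at 61.2 to 68.6 CPM. The mean effect was 0.53 ± 0.18 for Odc1 and -0.67 ± 0.43 for Tmprss2, a protease, with adjusted p-values of 0.635 and 0.9997 in edgeR's test.

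Of the 17 receptor chaperones and coregulators measured, 13 were higher with oxymetholone than in untreated mutants (median 0.26), beside 52.9% of all genes. With the combination 9 were higher than with metformin (median 0.01), beside 48.1% of all genes. Hspa8, the constitutive heat shock protein that loads steroid receptors into their chaperone complex, had 577, 677 and 630 CPM with the combination and 666, 506, 599, 565 and 633 CPM with oxymetholone. It had 502, 405 and 433 CPM with metformin, 291, 451 and 357 CPM in untreated mutants and 465, 495, 453 and 488 CPM in wild type. All 8 libraries with oxymetholone lay above all 6 other mutant libraries, which 19 genes of the table did (0.118%), and above the 4 wild-type libraries, though metformin library 1 and oxymetholone library 2 nearly met. The mean effect was 0.59 ± 0.15 (SE) on the log2 scale, with an adjusted p of 0.246 in edgeR's test and 0.000387 in DESeq2. Hspa8 was named because it had the smallest p of its list in this mean effect. The separation rests on the same libraries, so it is not separate evidence.

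**Figure D5:**
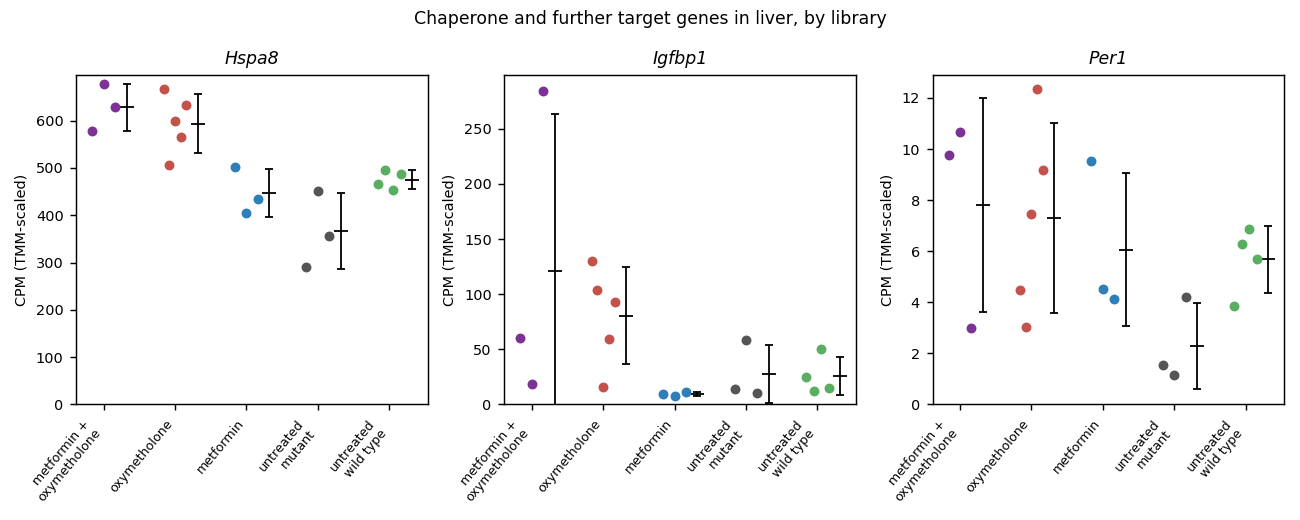
Level in CPM (y axis) of Hspa8, Igfbp1 and Per1 in every library, by group (x axis), with the mean ± SD beside the points (whiskers below 0 are not drawn). In the Hspa8 panel the 8 oxymetholone libraries, at 506 to 677 CPM, lie above the other 10, at 291 to 502 CPM.

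Groups of genes that these targets can follow were read in the same libraries. Of 18 measured clock genes, 13 were higher with oxymetholone than in untreated mutants (median 0.89), beside 52.9% of all genes. Metformin alone also had 13 higher than untreated mutants (median 0.61), beside 53.9% of all genes. Untreated mutants had 3 higher and 15 lower than wild type (median -0.53). The combination had 13 higher and 5 lower than metformin (median 0.05). The summed level of the clock genes was 344 to 570 CPM with oxymetholone against 254 to 352 CPM in untreated mutants. It was 192 to 590 CPM with the combination, against 306 to 432 CPM with metformin, and 298 to 412 CPM in wild type. All 7 measured immediate early genes were higher with oxymetholone than in untreated mutants (median 1.07), beside the same 52.9% of all genes. Their sums were 116 to 279 CPM against 86.7 to 129 CPM. With the combination 1 of 7 was higher than with metformin, beside 48.1% of all genes. None of either list passed edgeR's test. The labels give no hour of collection, and the part of the clock and immediate early genes in the Fkbp5 and Cebpd differences was not tested.

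Acute phase genes stood high in single libraries. Their summed level was 27678 to 60522 CPM with the combination, 24794 to 307420 with oxymetholone, 23389 to 47614 with metformin, 42833 to 200340 in untreated mutants and 34521 to 100060 in wild type. The library with the highest sum was also the one with the highest Fkbp5 in 4 of the 5 groups. These were combination library 1, oxymetholone library 4, untreated mutant library 2 and wild-type library 3. In the metformin group library 4 had the highest sum and the lowest Fkbp5. For Cebpd the same library held both in the oxymetholone, metformin and wild-type groups. In the combination and untreated mutant groups Cebpd was highest in another library (library 3 and library 4). Of 19 acute phase genes, 4 were higher and 15 lower with oxymetholone than in untreated mutants (median -0.59). Without oxymetholone library 4, the differences for oxymetholone against untreated mutants were 2.05 in Fkbp5 and 1.16 in Cebpd on the log2 scale. The part of the acute phase genes in the Fkbp5 and Cebpd differences was not tested.

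Markers of other liver cell types varied as well, and no marker was at 0 in a whole group. Of 12 macrophage and Kupffer markers, 9 were higher with oxymetholone than in untreated mutants, with sums of 390 to 1007 CPM against 443 to 597 CPM, and 10 with the combination than with metformin, with sums of 226 to 1320 CPM against 252 to 982 CPM. Of 10 lymphocyte markers, 9 were higher with oxymetholone than in untreated mutants, with sums of 7.62 to 34.8 CPM against 13.3 to 18.9 CPM. Of 10 stellate cell and fibroblast markers, 9 were higher with oxymetholone than in untreated mutants (median 0.39), with sums of 88.9 to 615 CPM against 229 to 399 CPM, and 5 were higher with the combination than with metformin, with sums of 315 to 912 CPM against 275 to 671 CPM.

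Bile duct markers stood high in single libraries, with sums of 687 CPM in combination library 3, 424 in oxymetholone library 4, 690.06 in metformin library 3 and 1467 in untreated mutant library 2. Of 9 such markers, 3 were higher with oxymetholone than in untreated mutants (median -0.32), 7 with metformin than in untreated mutants (median 3.57) and 2 with the combination than with metformin (median -1.24). Neutrophil markers had 4 of 9 higher with oxymetholone than in untreated mutants, with sums of 7.38 to 71.7 CPM against 15.9 to 51.2 CPM, and endothelial markers 5 of 10, with sums of 101 to 125 CPM against 93.2 to 123 CPM. The sums of each of these marker lists overlapped between the groups compared, and their part in the values of the 9 genes was not tested.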

How the data were processed

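Liver RNA-seq of 18 libraries in 5 groups was used, and 2 labelled samples, 1 of untreated mutants and 1 of metformin, are not analysed here. The authors deposited raw counts per gene, a CPM signal scaled by 1 factor per library, log2 residuals (not used) and log2 fold changes with p-values of their comparisons, per the file headers. Per the submitters' processing notes, reads were placed on GRCm39. Which aligner, counter, annotation and strand setting were used is not given in the sources used here, so reads of overlapping or antisense genes could be shared. The deposited CPM equal TMM-scaled CPM recomputed from the counts.

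From the deposited counts, edgeR 4.0.16 (R 4.3.3) fitted 1 coefficient per group over 18 libraries, with TMM, filterByExpr (16115 of 16115 genes kept), a robust quasi-likelihood fit and Benjamini-Hochberg adjustment over all genes at 0.05. The common dispersion was 0.181. Log2 CPM used a prior count of 2. Log2 differences are printed where at least as large as their standard error, and otherwise as levels or intervals; those given without a library follow the same fit. The procedure was tested on simulated data. Replicate pairs differed by more than sampling noise (smallest chi-square per degree of freedom 70.3). Replicates were numbered in record order. Alternatives were DESeq2 1.42.0, DESeq2 size factors in edgeR, no filter, a mean CPM of at least 1, only the compared groups, limma-voom (limma 3.58.1) with quality weights, and left-out libraries.

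The members, the 15 gene lists and the tests were chosen with earlier results of these data known. Named beside the members were Nr3c2, up to 4 genes per pathway list by p in the mean oxymetholone effect, and the 3 genes most like Nr3c1, Fkbp5, Srd5a1 and Hsd11b1 by Pearson correlation, with a mean log2 CPM of at least 0. One further receptor is not reported here.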

Additional observations from a re-analysis of the deposited data

Results flagged for a closer look

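In groups of 4 or more libraries, 58 groups of values in 29 named genes were searched for a library far from the rest of its group by Dixon's rule, which by chance marks about 1 group in 20. It marked 6. Oxymetholone library 3 was marked for Klf9, at 197 CPM, and it is the library with 8.19% mitochondrial counts. Oxymetholone library 5 was marked for Hsp90aa1, a receptor chaperone, at 260.03 CPM, and for Abcc4, a transporter, at 27.5 CPM. Oxymetholone library 4, the library with the highest acute phase sum, was marked for Tmprss2, a protease, at 37.6 CPM. In wild type, library 1 was marked for Pgrmc1, at 3708 CPM, and library 4 for the coactivator Ncoa2, at 28.3 CPM. No difference between groups of these genes passed the test.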

How the results depend on the processing

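No member passed the test with edgeR under any setting, and of 1107 member values recomputed under alternatives 2 had an adjusted p under 0.05, Fkbp5 and Cebpd in the mean oxymetholone effect with DESeq2. Of 409 recomputed differences that were at least 1 standard error in size, 2 changed sign: Sgk1 for the combination against metformin (0.029 without metformin library 3, and -0.88 to 0.029 over left-out libraries) and Klf9 for the oxymetholone effect with metformin minus that without it (0.14 with limma-voom). Outside the members, the mean oxymetholone effect changed sign for Ncoa2 (0.008 without metformin and combination library 3) and Serpina6 (-0.26 without combination library 2, and -0.26 to 0.67 over left-out libraries). The cause was not tested. The counts of genes called moved more: DESeq2 called 77 for oxymetholone and 43 for the combination against untreated mutants, 11 for metformin against untreated mutants, 10 for the combination against metformin, 89 for oxymetholone against wild type, 79 for the mean effect and 3 for the difference of effects. Limma-voom called 14, 16, 3 and 43 for oxymetholone and the combination against untreated mutants, the combination against metformin, and oxymetholone against wild type. With only the compared groups, 0 were called for the combination against untreated mutants (612 at an unadjusted p under 0.05) and 25 for oxymetholone against wild type. Without metformin and combination library 3 the combination against untreated mutants had 5, and with a mean CPM of at least 1 the mean effect had 12. With each library left out in turn, the counts were 4 to 7 for oxymetholone and 0 to 3 for the combination against untreated mutants (0 without untreated mutant library 2 or 4), 0 to 2 for the combination against metformin, 9 to 17 for oxymetholone against wild type and 9 to 18 for the mean effect. Counts of glucocorticoid targets higher, recomputed after the data were seen, were 21 to 26 of 30 for oxymetholone against untreated mutants, 14 to 23 for the combination against metformin and 20 to 25 for the mean effect. No paired analysis was possible because the labels carry no replicate numbers. Every member had at least 23 counts in each library, and precision at other depths was not compared.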
